A study of Mus musculus with 4 samples.

Results

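Genes of DNA replication and S phase were examined in plasmacytoid dendritic cells (pDCs), the dendritic cell type known for type I interferon secretion. The set held 49 genes, given as a list of symbols that covers the replication fork, its supply and entry into S phase, out of 27179 genes of the count table. Every member was found once in the table, and all 49 passed the filter on low counts that left 11706 genes for testing. The cells came from C57BL/6 mouse bone marrow, differentiated in 8 days of culture with Flt3 ligand, and all of them had received imiquimod, a TLR7 ligand, at 1 µg/ml for 24 h. They were sorted with SiglecH and CD11b and divided by blue fluorescent protein (BFP), a reporter of the chemokine gene Cxcl10; each of the BFP-negative and the BFP-positive group has 2 libraries. A population label gives the BFP-negative cells as CXCL10-positive while the series design text gives them as CXCL10-negative, so the groups were taken from BFP alone. The titles give replicate 1 of both groups the code REX550 and replicate 2 of both the code REX556; the labels do not say whether a code names an animal, a culture or something else. The libraries were compared without pairing, and values from a fit with the replicate number, and so the code, as a block are given beside each result whose call it changes. No unstimulated cells were analysed here.

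Chromosomal DNA is copied in S phase of the cell cycle. In G1 the origin recognition complex, with Cdc6 and Cdt1, loads the MCM helicase onto origins; in S phase Cdc45 and the GINS complex switch it on, polymerase alpha with primase lays the primers, and polymerases delta and epsilon extend them with the sliding clamp PCNA. Deoxynucleotides for this come from ribonucleotide reductase, thymidylate synthase and salvage kinases, and many of the genes are known targets of the E2F transcription factors. Differentiated pDCs are known to divide little, while the bone marrow progenitors they arise from divide.

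Of the 49 members, 2 were higher and 1 was lower in BFP-positive cells in edgeR's quasi-likelihood test at a Benjamini-Hochberg adjusted p under 0.05, and 46 were not called. In what follows, called means past that threshold in this fit without pairing, and rose and fell are used of called genes only. Among all genes tested, 7.60% were called higher and 3.51% lower, against 4.08% and 2.04% of the members. With the replicate block, 5 members were higher (Tk1, Rrm2, Cdc45, Mcm5 and Slbp) and 3 lower (Pola2, Mcm6 and Pold2), 10.2% and 6.12% of the members, where 9.74% and 6.49% of all genes tested were. Whether this is the better fit depends on what the shared codes mean. The members that rose were Tk1, the thymidine kinase of the salvage pathway, and Rrm2, the small subunit of ribonucleotide reductase. The member that fell was Pola2, the accessory subunit of polymerase alpha. In bulk samples such as these, fewer cells of a type or phase and less RNA per cell cannot be told apart. The median log2 fold change (BFP-positive over BFP-negative) of the members was -0.0071, beside -0.022 over all genes tested, and 39 members lay within 0.5 of 0. Both BFP-positive libraries lay above both BFP-negative ones for 11 members (22.4%) and below them for 13 (26.5%), where 27.1% and 27.1% of all genes tested did so. Neither of these shares of members exceeded that of all genes. At an unadjusted p under 0.05 in edgeR, 5 members were higher (Tk1, Rrm2, E2f2, Cdc45 and Slbp) and 5 lower (Pola2, Mcm6, Pold2, Lig1 and E2f1), 10.2% each, against 14% and 10.6% of all genes tested. DESeq2 and limma, without pairing, called the same 3 members as edgeR. The level of a gene is given below as CPM, counts per 1000000 of the TMM-scaled library size, and as RPKM where levels of different genes are compared, since RPKM also divides by transcript length. The standard errors (SE) of the members' log2 fold changes ran from 0.12 to 0.51 with a median of 0.20. Differences within them were not detectable with 2 libraries a group, and neither were some well beyond them. E2f2 at 1.20 (SE 0.43) and Mcm6 at -0.33 (SE 0.12) were not called.

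**Figure D1:**
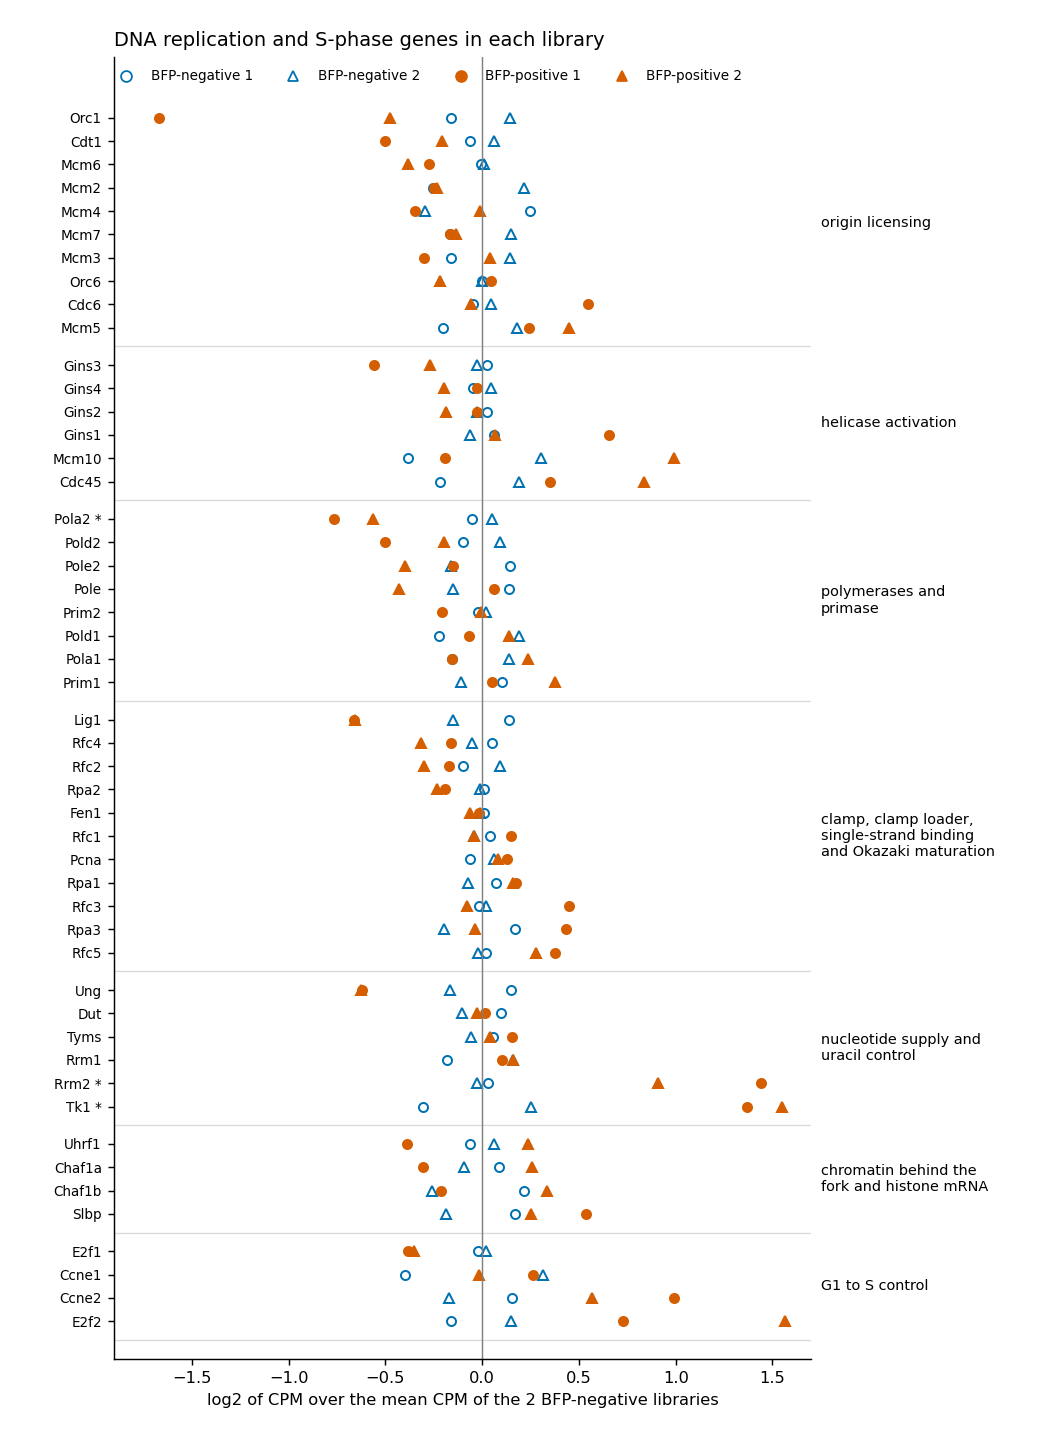
Level of each of the 49 members in each library, as the log2 of its CPM (read counts scaled to the library by TMM) over the mean CPM of the 2 BFP-negative libraries (horizontal axis), by role; open blue marks are BFP-negative and filled orange marks BFP-positive libraries, circles replicate 1 and triangles replicate 2, and a star marks an adjusted p under 0.05. The starred genes are Tk1 and Rrm2, far to the right, and Pola2, to the left, while for 25 members the groups overlap.

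The promoter sequences of the 3 called members, and of Mcm6, the most abundant of the origin-licensing members, are shown because E2F control of this gene set is its textbook regulation. They come from the RefSeq promoter table of GRCm38.p6, which held 41 of the 49 members (8 had no entry) and gives for each start the 250 bases before it and 50 after it; only the bases outside the annotated gene are printed, 5′ to 3′ on the strand of the gene. Capitals mark E2F motifs (TTTCGCGC, TTTGGCGC, TTTCCCGC or TTTGCCGC) and the CCAAT box, on either strand. The Tk1 stretch lies at chr11:117826088-117826264 (minus strand), within the span of the opposite-strand gene Afmid, the Rrm2 stretch at chr12:24708004-24708253 (plus strand), the Pola2 stretch at chr19:5964239-5964456 (minus strand) and the Mcm6 stretch at chr1:128359706-128359955 (minus strand).
Tk1: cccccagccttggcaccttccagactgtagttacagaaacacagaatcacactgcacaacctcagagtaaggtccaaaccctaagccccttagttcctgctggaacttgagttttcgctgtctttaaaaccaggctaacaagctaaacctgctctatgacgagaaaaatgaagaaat
Rrm2: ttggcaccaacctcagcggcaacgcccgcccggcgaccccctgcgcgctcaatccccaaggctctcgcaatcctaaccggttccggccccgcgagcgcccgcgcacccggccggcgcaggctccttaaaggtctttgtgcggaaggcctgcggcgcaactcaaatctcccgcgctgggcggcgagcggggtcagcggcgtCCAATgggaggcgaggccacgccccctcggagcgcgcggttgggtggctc
Pola2: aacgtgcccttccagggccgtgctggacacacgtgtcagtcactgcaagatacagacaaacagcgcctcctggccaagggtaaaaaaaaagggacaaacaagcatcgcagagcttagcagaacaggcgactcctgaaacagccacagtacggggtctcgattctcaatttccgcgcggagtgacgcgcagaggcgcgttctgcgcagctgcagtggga
Mcm6: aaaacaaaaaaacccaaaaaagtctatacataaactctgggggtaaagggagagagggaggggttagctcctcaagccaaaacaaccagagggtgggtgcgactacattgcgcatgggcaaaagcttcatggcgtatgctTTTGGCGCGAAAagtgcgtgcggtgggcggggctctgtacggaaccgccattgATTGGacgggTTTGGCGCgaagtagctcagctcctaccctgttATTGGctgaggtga

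The Mcm6 stretch held TTTGGCGC at 110 and at 47 bases before the start, the first overlapping TTTCGCGC on the opposite strand at 106 bases before it, and CCAAT boxes on the opposite strand at 57 and 14 bases. The Rrm2 stretch held CCAAT at 50 bases before the start. None of the E2F letters searched stood in the windows of Tk1, Rrm2 or Pola2, which says only that these letters are not there; the table's starts of Tk1 and Pola2 lie inside the annotated genes, so other starts exist. Over the 48 windows of the 41 members, 15 (31.25%), each of a different gene, held at least 1 of the E2F motifs, against 2.26% of all 32851 windows in the table. The CCAAT box stood in 58.33% of the members' windows and in 37.41% of all windows. The 15 genes with an E2F motif were Cdc6, Cdt1, E2f2, Gins3, Lig1, Mcm3, Mcm5, Mcm6, Mcm7, Orc1, Pola1, Pold1, Pole2, Rfc3 and Uhrf1. Their median log2 fold change was -0.12 (range -0.95 to 1.20) and none was called without pairing (with the replicate block, Mcm5 and Mcm6 were), beside a median of 0.094 (range -0.66 to 1.46) for the 26 members whose windows held none of the motifs. These matches are a description of letters, not of binding.

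Genes of nucleotide supply held both members that rose. Tk1 (Entrez gene 21877, chromosome 11, 117815519 to 117826087 on GRCm38) stood at 20.4 and 30.0 CPM in the BFP-negative libraries and at 65.1 and 73.6 CPM in the BFP-positive ones. The groups were well apart, with 254 and 380 counts against 759 and 894. The means were 25.2 ± 6.76 and 69.4 ± 5.97 CPM (SD, n = 2), a 2.75-fold rise (log2 fold change 1.46, SE 0.23, adjusted p = 0.0029 in edgeR's quasi-likelihood test). An exon of Tk1 overlaps an exon of Afmid on the opposite strand, which these libraries cannot separate; Afmid itself was at 4.74 and 4.5 CPM in BFP-negative libraries, 4.46 and 4.53 CPM in BFP-positive ones, and was not called.

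Rrm2 (Entrez gene 20135, chromosome 12, 24708254 to 24714146) stood at 28.8 and 27.7 CPM in BFP-negative libraries and at 76.5 and 53.0 CPM in BFP-positive ones. It was higher in both BFP-positive libraries, and more so in replicate 1. The means were 28.2 ± 0.768 and 64.7 ± 16.6 CPM (SD, n = 2), a 2.29-fold rise (log2 fold change 1.20, SE 0.22, adjusted p = 0.0074 in edgeR). Both calls held with any 1 library left out; that of Rrm2 was weakest without BFP-positive replicate 1 (log2 fold change 0.91, adjusted p = 0.0483 in edgeR). Rrm1, the large subunit of the same enzyme, was at 123 and 156 CPM against 149.9 and 155.9 CPM, overlapping levels (log2 fold change 0.13, SE 0.16). Per length, on the authors' RPKM scale, the level of Rrm2 was 0.428 and 0.325 times that of Rrm1 in the BFP-negative libraries and 0.935 and 0.624 times in the BFP-positive ones.

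The de novo thymidylate genes were not called. Tyms, thymidylate synthase, was at 90.2 and 83.4 CPM in BFP-negative libraries and 96.7 and 89.2 CPM in the others (log2 fold change 0.099, SE 0.16). Dut, the dUTPase that supplies the substrate of Tyms and keeps uracil out of DNA, was at 221 and 193 against 209 and 203 CPM (log2 fold change -0.0071, SE 0.13), the smallest SE of the nucleotide genes. Ung, the glycosylase that removes uracil from DNA, was low throughout, at 14.6 and 11.8 CPM against 8.58 and 8.56 CPM; the groups did not overlap, but it was not called (log2 fold change -0.62, SE 0.35, adjusted p = 0.313 in edgeR). Per length, the Tk1 level was 0.63 and 1 times that of Tyms in BFP-negative and 1.87 and 2.29 times in BFP-positive libraries.

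**Figure D2:**
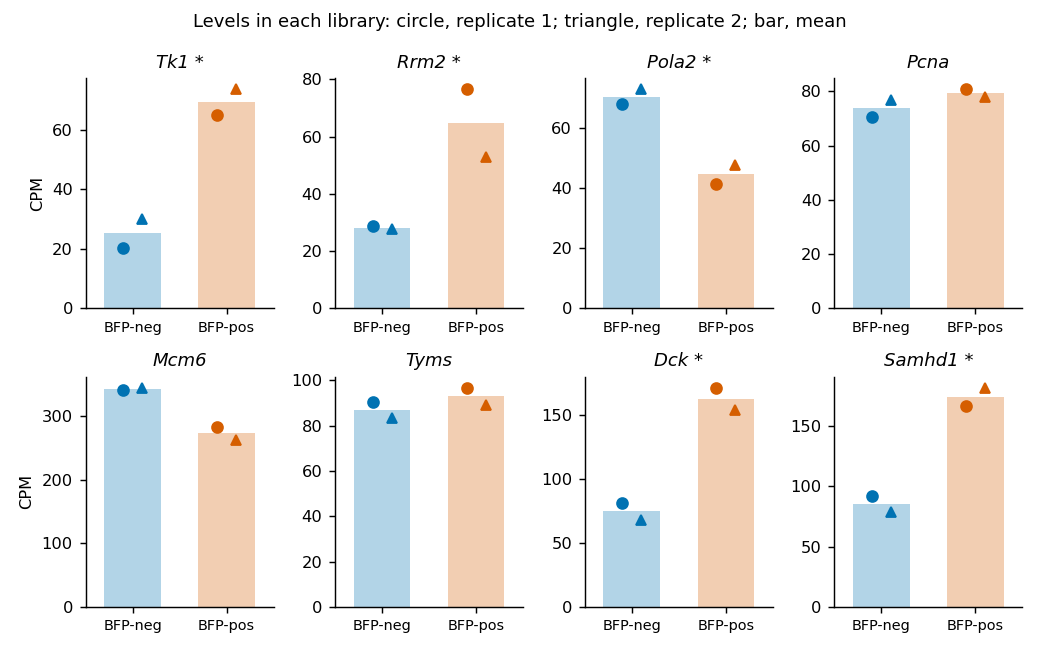
CPM (vertical axis, from 0) in each library for Tk1, Rrm2, Pola2, Pcna, Mcm6, Tyms and, from the wider list of replication genes, Dck and Samhd1; bars are group means of 2 libraries, circles replicate 1 and triangles replicate 2, and stars mark an adjusted p under 0.05. Tk1 goes from 25.2 to 69.4 CPM on average and Pola2 from 70.4 to 44.6 CPM, while Tyms, Pcna and Mcm6 carry no star.

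Among the polymerase and primase genes, Pola2 was the member that fell. Pola2 (Entrez gene 18969, chromosome 19, 5940543 to 5964238) was at 68.0 and 72.8 CPM in BFP-negative libraries and at 41.5 and 47.7 CPM in BFP-positive ones, so the groups did not overlap. Its means of 70.4 ± 3.40 and 44.6 ± 4.39 CPM (SD, n = 2) differed 1.58-fold (log2 fold change -0.66, SE 0.18, adjusted p = 0.0437 in edgeR, and 0.0205 with the replicate block). That call was lost whichever library was left out. In edgeR the adjusted p was 0.0698 when BFP-negative replicate 1 was missing, 0.136 when replicate 2 of that group was, and 0.229 and 0.0899 when BFP-positive replicate 1 or 2 was. The genes of its partners in the same enzyme overlapped between the groups and were not called. Pola1, the catalytic subunit, was at 7.39 and 9.07 against 7.38 and 9.71 CPM (log2 fold change 0.054, SE 0.40). Prim1, the primase catalytic subunit, was at 39.7 and 34.3 against 38.4 and 48.1 CPM, and Prim2, its regulatory subunit, at 23.8 and 24.5 against 20.9 and 24.0 CPM.

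The genes of polymerases delta and epsilon were not called without pairing. Pold1, the catalytic subunit of polymerase delta, was at 168 and 224 against 187 and 216 CPM (log2 fold change 0.038, SE 0.16). Pold2, its accessory subunit, was at 249 and 283 against 188 and 232 CPM, lower in both BFP-positive libraries but not called (log2 fold change -0.34, SE 0.15, adjusted p = 0.186 in edgeR); with the replicate block it passed the threshold (-0.35, adjusted p = 0.0374). Pole and Pole2, of polymerase epsilon, had log2 fold changes of -0.16, SE 0.37, and -0.27, SE 0.26. The large catalytic subunits Pola1 and Pole were the members with the lowest level per length, at 1.57 and 1.40 RPKM over the 4 libraries.

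**Figure D3:**
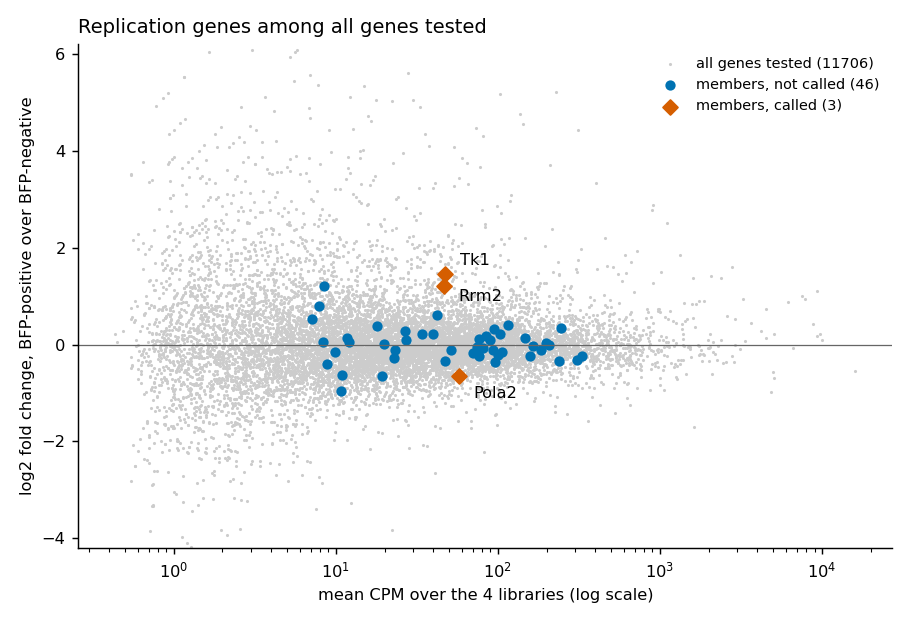
Log2 fold change, BFP-positive over BFP-negative (vertical axis), against mean CPM over the 4 libraries (horizontal axis, log scale) for 11706 genes tested (grey; 113 lie outside the plotted range), the 46 members not called (blue) and the 3 called (orange diamonds). The members' mean levels run from 7.15 to 331 CPM, and Tk1 and Rrm2 lie above the other members of like level.

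The origin-licensing genes, which mark origins and load the helicase in G1, held no call among 10 members without pairing; with the replicate block, Mcm6 and Mcm5 passed the threshold, in opposite directions. Their median log2 fold change was -0.16, with 8 values below 0 and 2 above, where 6065 of all 11706 genes tested lay below 0. The split depended on single libraries. Without BFP-negative replicate 2, Mcm2, Mcm3 and Mcm7 lay above 0, at 0.038, 0.061 and 0.036, and none of the 10 turned the other way. Mcm6, a subunit of the replicative helicase, was at 341 and 345 CPM in BFP-negative libraries and 283 and 263 CPM in the BFP-positive ones. It was lower in both BFP-positive libraries, but its adjusted p was 0.121 in edgeR (log2 fold change -0.33, SE 0.12), and 0.0351 with the replicate block. Mcm5, a subunit of the same ring, lay the other way, at 187 and 244 against 255 and 294 CPM (a log2 difference of 0.35, SE 0.16, adjusted p = 0.206 in edgeR, and 0.0352 with the replicate block). Without BFP-negative replicate 2 it was called (log2 fold change 0.57, adjusted p = 0.0361 in edgeR). The remaining ring subunits overlapped between groups. Mcm2 was at 143 and 199 against 144 and 146 CPM, and Mcm3 at 172 and 213 against 156 and 199 CPM. Mcm4 was at 87.8 and 60.4 against 58.3 and 73.5 CPM, and Mcm7 at 100.2 and 125 against 100.2 and 102 CPM. Per length, the 6 ring subunits spanned 19.6 RPKM (Mcm4) to 106 RPKM (Mcm6).

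Of the loaders, Orc1, the largest subunit of the origin recognition complex, was at 12.7 and 15.7 CPM against 4.46 and 10.2 CPM. Its BFP-positive libraries differed widely from each other, and it was not called (log2 fold change -0.95, SE 0.43, adjusted p = 0.212 in edgeR). This value, the lowest of the members with all libraries, went to -0.47 without BFP-positive replicate 1 and to -1.66 without BFP-positive replicate 2; without BFP-positive replicate 1 Lig1, Ung and Pola2 lay lower, and without BFP-negative replicate 2 Lig1 did. Orc6, the smallest subunit, overlapped at 83.1 and 82.9 against 85.7 and 71.5 CPM. Cdt1, which brings the helicase to origins, was at 50.8 and 55.3 against 37.4 and 45.9 CPM (log2 fold change -0.35, SE 0.20), and Cdc6, the loading ATPase, at 23.5 and 25 against 35.4 and 23.3 CPM (0.28, SE 0.27). Neither was called.

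Helicase activation genes lay on both sides of 0, and none was called without pairing. Cdc45, which joins the MCM ring to form the active helicase, was at 28.9 and 38.3 CPM in the BFP-negative libraries and 42.7 and 59.8 CPM in the BFP-positive ones. The groups did not overlap, with a log2 fold change of 0.61, SE 0.24, and an adjusted p of 0.14 in edgeR, or 0.0475 with the replicate block. The 4 GINS subunits, its partners, ran from -0.41 (Gins3) to 0.39 (Gins1) in log2 fold change. Gins4 was at 94.2 and 100.2 against 95.5 and 84.9 CPM and Gins2 at 54.0 and 52.0 against 52.0 and 46.5 CPM, with overlapping groups. Gins3 was at 10.3 and 9.94 against 6.87 and 8.40 CPM, and Gins1 at 16.3 and 14.98 against 24.6 and 16.4 CPM; for neither did the groups overlap, and neither was called. Mcm10, an initiation factor, had a mean of 7.15 CPM and the largest SE of the members (log2 fold change 0.52, SE 0.51).

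Of the 11 genes of the clamp, its loader, single-strand binding and Okazaki fragment maturation, none was called, and their median log2 fold change was 0.055. Pcna, the sliding clamp and a common proliferation marker, was at 70.6 and 77.0 CPM against 80.8 and 78.03 CPM. The groups did not overlap, but by a margin far below the SE (log2 fold change 0.11, SE 0.16). Rfc2, a clamp loader subunit, was the member with the highest level per length, at 218 RPKM. It was at 335 and 381 against 318 and 290.2 CPM (log2 fold change -0.24, SE 0.13). An exon of Rfc2 overlaps an exon of Lat2 on the opposite strand, which these libraries cannot separate. Rfc4 (-0.24) and Rfc5 (0.33) lay on opposite sides of 0, each with groups that did not overlap, and Rfc1 and Rfc3 were at 0.055 and 0.21. The genes of RPA, the single-strand binding complex, were at log2 fold changes of 0.17 (Rpa1), -0.21 (Rpa2) and 0.22 (Rpa3). Fen1, the flap nuclease, was at 169 and 166 against 166 and 161 CPM, a log2 fold change of -0.039, SE 0.13. Lig1, the ligase that seals Okazaki fragments, was at 25.8 and 21.1 against 14.9 and 14.9 CPM; both BFP-positive libraries were lower, and it was not called (log2 fold change -0.66, SE 0.27, adjusted p = 0.168 in edgeR).

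**Figure D4:**
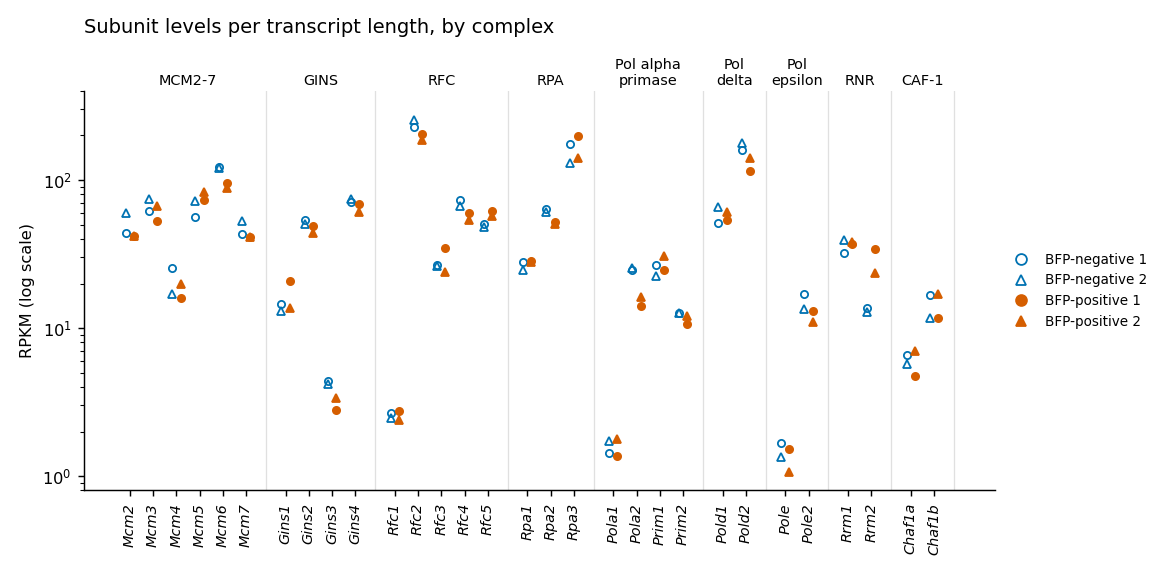
Level per length (RPKM from the authors' log2 values, vertical log axis) of the subunits of 9 complexes in each library; open blue marks are BFP-negative, filled orange marks BFP-positive, circles replicate 1 and triangles replicate 2. Subunits of a complex lie far apart in level, as for Rfc2 at 218 and Rfc1 at 2.57 RPKM, and Rrm2 comes closer to Rrm1 in the BFP-positive libraries.

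Within each complex apart from ribonucleotide reductase, the highest and lowest subunits differed in level per length by more than any subunit differed between groups. In the clamp loader, Rfc2 exceeded Rfc1 by 93.6 times in BFP-negative cells and 76.6 times in BFP-positive cells, by group mean RPKM. Whether reads of the overlapping gene Lat2 are part of the Rfc2 level was not tested. In GINS, Gins4 exceeded Gins3 by 17 and 20.9 times, and in polymerase epsilon Pole2 exceeded Pole by 10.1 and 9.33 times. Rrm1 over Rrm2 went from 2.7 to 1.29 times. RPKM values of genes with long and short transcripts depend on how evenly the cDNA covers each transcript, which was not tested.

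The chromatin genes and the cell cycle regulators among the members held no call without pairing. Slbp, which binds the stem-loop of replication-dependent histone mRNA, was at 111 and 87.1 against 144 and 118 CPM (a log2 difference of 0.40, SE 0.18, adjusted p = 0.191 in edgeR, and 0.0489 with the replicate block). Uhrf1, which directs maintenance DNA methylation, was at 72.4 and 78.8 against 57.7 and 89.1 CPM, overlapping. The CAF-1 subunits Chaf1a and Chaf1b, which place histones on new DNA, had log2 fold changes of 0.0038, SE 0.29, and 0.088, SE 0.28. E2f1, an activator of S-phase genes, was at 107 and 110.5 against 83.7 and 85.5 CPM, lower in both BFP-positive libraries but not called (log2 fold change -0.36, SE 0.15, adjusted p = 0.165 in edgeR). E2f2, another E2F activator, lay the other way at 4.58 and 5.68 against 8.50 and 15.1 CPM, with the lowest adjusted p of the members not called (1.20, SE 0.43, adjusted p = 0.112 in edgeR). Of the E-type cyclins, which drive S-phase entry with Cdk2, Ccne1 was at 8.52 and 14.0 against 13.5 and 11.1 CPM and Ccne2 at 6.43 and 5.13 against 11.5 and 8.56 CPM (log2 fold changes 0.13, SE 0.37, and 0.79, SE 0.41).

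Of a wider list of 47 replication and nucleotide genes outside the set, 3 were higher and 2 lower, with a median log2 fold change of -0.010. These are shares of 6.38% and 4.26%, near the 7.60% and 3.51% of all genes tested. The 3 were Dck, the deoxycytidine salvage kinase, Samhd1, the enzyme that degrades deoxynucleotides, and Asf1b, a histone chaperone. Dck was at 81.4 and 68.4 against 172 and 154 CPM (a log2 difference of 1.12, SE 0.16, adjusted p = 0.00164 in edgeR). Samhd1 was at 92.3 and 78.7 against 167 and 182 CPM (1.03, SE 0.15, adjusted p = 0.00217 in edgeR). The groups did not overlap for either gene. The 2 that fell were Nme1, a nucleoside diphosphate kinase, from 460.4 and 567 to 321 and 340 CPM, and Recql4, a helicase, from 0.884 and 3.39 CPM to no count in either BFP-positive library. Recql4 was at least 8.48-fold lower, taking 3 counts per BFP-positive library as the floor, which covers counting error only. Asf1b was at 41.1 and 37.2 against 69.7 and 76.1 CPM. Asf1b, Nme1 and Recql4 were named after their values were seen, and each lost its call when a library was left out: Asf1b when BFP-positive replicate 2 was (adjusted p = 0.055 in edgeR), Nme1 for BFP-negative replicate 2 and BFP-positive replicate 1 (0.0574 and 0.0683), and Recql4 for either BFP-positive library (0.109 and 0.118). Without BFP-positive replicate 1, none of the list was called lower.

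Among 31 tested genes of G1 and S-phase control, 4 were higher and 3 lower (12.9% and 9.68%, against 7.60% and 3.51% of all genes tested). Ccna2, the cyclin of S phase and G2, rose from 23.0 and 22.2 to 69.3 and 74.7 CPM (log2 fold change 1.67, SE 0.19), and Ccnd1, a G1 cyclin, from 163 and 145 to 379 and 335 CPM (1.21, SE 0.14). The cyclin-dependent kinase inhibitor genes Cdkn2d and Cdkn1b were also higher, with log2 fold changes of 1.22, SE 0.14, and 1.41, SE 0.40. Lower were Myc, a growth transcription factor (-1.46, SE 0.18), Cdk6, a G1 kinase (-0.94, SE 0.23), and Ccnd2, another G1 cyclin (-0.66, SE 0.11). The higher genes thus included both cyclins and inhibitors of their kinases. Cdkn1b and Cdk6 lost their calls without BFP-negative replicate 2 (adjusted p = 0.107 and 0.0704 in edgeR) and without BFP-positive replicate 1 (0.298 and 0.147).

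The lists of G2 and mitosis genes and of replication-dependent histone genes held larger shares of called genes. Of 30 G2 and mitosis genes, 13 were higher (43.3%) and none lower in edgeR (19 and 0 at an unadjusted p under 0.05), with a median log2 fold change of 1.34. Among all genes tested, 7.60% were called higher and 3.51% lower. The list's summed level was 448 and 435 CPM in BFP-negative and 928 and 923 CPM in BFP-positive libraries. The members' summed level was 3981 and 4229 CPM against 3998 and 4055 CPM. Ube2c, a ubiquitin-conjugating enzyme of mitotic exit, rose from 16.0 and 20.7 to 71.9 and 75.6 CPM, and Birc5, a subunit of the chromosomal passenger complex, from 21.9 and 19.0 to 74.9 and 59.5 CPM. Mki67, the Ki-67 proliferation marker, was at 0.161 and 2.76 against 4.46 and 2.39 CPM, from 2 and 35 against 52 and 29 counts. Its log2 fold change of 1.22, SE 1.05, was too uncertain to tell a change from none. Top2a, the topoisomerase of dividing cells, was at 21.6 and 13.7 against 34.8 and 28.3 CPM (0.84, SE 0.29). Neither gene was called. Top2a passed the threshold in edgeR with the replicate block (adjusted p = 0.0326) and without BFP-negative replicate 1 (0.0283). Of 9 tested replication-dependent histone genes, 6 were higher (66.7%). Hist1h4d was at 111 and 101 against 247 and 235 CPM and Hist1h2ae at a mean of 15.9 against 47.9 CPM. These levels are uncertain because histone genes are near-identical copies. How fully the cDNA captured replication-dependent histone mRNA, which carries a stem-loop, was not tested. These counts may therefore not follow the level of that mRNA. The difference between these lists and the members was not tested.

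**Figure D5:**
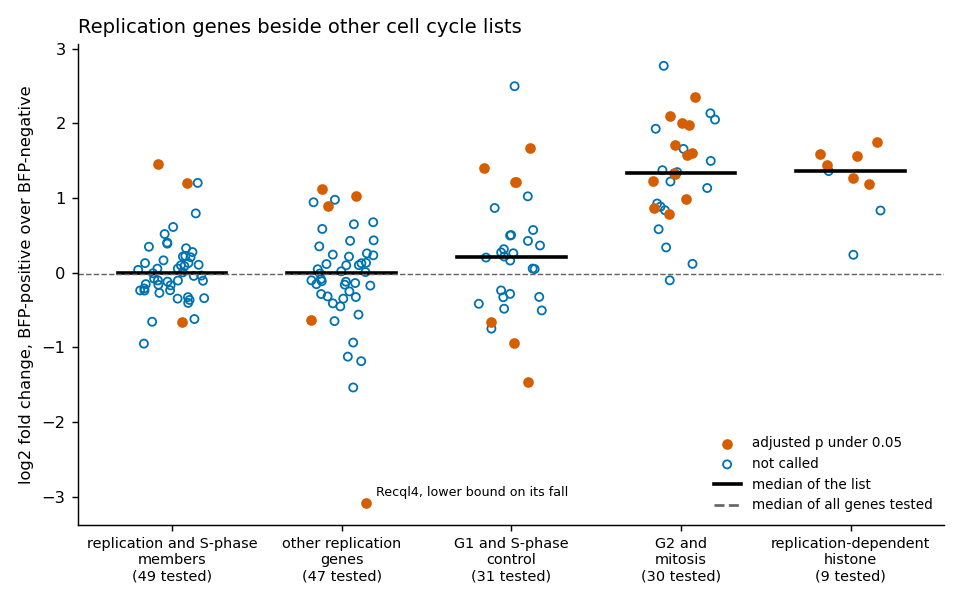
Log2 fold change, BFP-positive over BFP-negative (vertical axis), of each tested gene in 5 lists; filled orange points have an adjusted p under 0.05, open points do not, black bars are list medians and the dashed line is the median of all genes tested (-0.022). The members centre on the dashed line, whereas the G2 and mitosis list and the histone list centre near 1.34 and 1.36; Recql4 is drawn at the bound set by its floor.

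The libraries held 11868254 to 12570117 counts, so that 3 counts were worth 0.237 to 0.257 CPM. The reporter gene Cxcl10 was at 0.241 and 1.498 CPM against 12.8 and 12.7 CPM in the BFP-positive libraries, which the sort on its reporter selects for. The pDC markers Siglech and Bst2 were abundant in all libraries, at 611 to 820.3 and 1567 to 1867 CPM. Of 10 pDC markers, 2 were higher and 4 lower (20% and 40%, against 7.60% and 3.51% of all genes tested). Their summed level was 23640 and 28200 against 19560 and 18550 CPM. Most of this sum was Ly6d, which was called lower, at 17290 and 20950 against 13610 and 12570 CPM. The sum therefore says little about the other markers. The 2 higher were Siglech, from 611 and 615 to 785 and 820.3 CPM (adjusted p = 0.0485 in edgeR), and Runx2. Among the 4 lower, Ccr9 went from 915 and 975 to 519 and 501 CPM and Cox6a2 from 203 and 199 to 121 and 81.2 CPM. The counts of both directions fell when BFP-positive replicate 2 was left out. Of 9 conventional dendritic cell markers, 8 were tested and 3 were higher (37.5%), among them Flt3 and Zbtb46. The list's summed level was 259 and 326 against 487 and 588 CPM. Of 8 monocyte and macrophage markers, 7 were tested, of which 5 were higher (71.4%), led by Cd14 and Csf1r, and 2 lower (28.6%). The list's summed level was 346 and 444 against 941 and 1105 CPM. Of 8 progenitor markers, 5 were tested and none was called in edgeR (40.7 and 38.7 against 42.6 and 58.5 CPM; 1 at an unadjusted p under 0.05, Cd34, which DESeq2 called, as did edgeR without BFP-negative replicate 2), with Elane at 0. Of 6 B cell markers, 4 were tested and 2 were lower (50%), among them Cd79a. The list's summed level was 121 and 123 against 94.8 and 99.6 CPM. Only 1 of 5 T and NK markers was tested (summed level of the list 10.8 and 3.15 against 3.09 and 9.05 CPM). For neutrophils 4 of 5 were (15.6 and 19.2 against 11.8 and 27.3 CPM), and for erythroid cells 1 of 5 (11.7 and 8.04 against 17.2 and 9.55 CPM). No tested gene of these lists was called or had an unadjusted p under 0.05. With 1 gene tested, the T and NK and the erythroid lists say little. There 1 T and NK marker and 2 erythroid markers had no count in any library, among them Gzma and Klf1. The part of these cells in the change of Tk1, Rrm2, Pola2 and the other genes called was not tested.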

How the data were processed

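RNA-seq libraries of sorted pDCs were compared, 2 BFP-positive against 2 BFP-negative, grouped by sample title. Per the labels' protocols, RNA came from a Qiagen kit and cDNA from the SMART-Seq kit, which amplifies by PCR and marks neither strand nor molecule. The authors deposited raw counts per gene and, for each library, log2 RPKM values; per the submitters' processing notes, the tools were Subread with featureCounts, and limma, and the builds GRCm38 and mm10. Versions, strand setting and treatment of multi-mapping reads are not given in the sources used here.

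Counts were filtered with filterByExpr (minimum count 10, minimum total 15), TMM-scaled and tested in edgeR 4.0.16 (R 4.3.3, quasi-likelihood, no covariate beside the group, 2 degrees of freedom left, two-sided, Benjamini-Hochberg adjustment over 11706 genes, threshold 0.05). The SE is the log2 fold change over the root of F. Titles share the codes REX550 (replicate 1 of both groups) and REX556 (replicate 2), and the labels do not explain them. The libraries are paired if each code names an animal, or a culture, whose cells were sorted into both groups. The fit with the replicate block is then the one that takes this into account. That fit leaves fewer degrees of freedom than the 2 of the fit without pairing. If the codes do not name animals, p-values of either fit measure the spread between these libraries, which may be technical. Replicates differed beyond counting noise (chi-square per degree of freedom 18.9 and 14.9). RPKM values are 2 raised to the deposited log2 RPKM. The script was tested on simulated data with known fold changes.

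The members, gene lists and motifs were chosen with earlier results of these data known. Named with values were called members, the 2 with the highest mean CPM of each role, the 2 smallest p of each other list, Mki67, Top2a and Cxcl10; the other members and genes were added after their values were seen. Of the members, 17 have an exon that overlaps another gene's exon in GENCODE M21, and Pcna and Tyms have named pseudogenes, so these levels are less certain. Alternatives were DESeq2 1.42.0, limma 3.58.1 (voom, and on log2 RPKM), other scalings and filters, a robust fit, a replicate block and each library left out. The values of some single marker genes are not reported here.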

Additional observations from a re-analysis of the deposited data

How the results depend on the processing

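Tk1 and Rrm2 were called higher under all alternatives run, and Pola2 lower under all except those that left out a library, where no member was called lower (0 to 0) and 2 to 3 were called higher. With a library left out, the counts over all genes were 559 to 921 higher (559 without BFP-positive replicate 2) and 245 to 408 lower (245 without BFP-positive replicate 1), and the members' median log2 fold change -0.026 to 0.036. With the replicate number as a block, 5 members were higher (Cdc45, Mcm5 and Slbp added) and 3 lower (Mcm6 and Pold2 added), 760 of all genes were lower and the members' median was -0.018; equal numbers share a title code, whose meaning is not given, and the deviations of equal numbers from their group means correlated at 0.059 over all genes tested and at 0.363 over the members. Beside these, the block added Top2a and changed no other call of a gene named with its values. The members' median was 0.0041 with RLE size factors and with DESeq2, -0.073 with library totals alone and -0.086 on log2 RPKM, where the median of all genes was -0.011, -0.011, -0.087 and -0.084. By library totals alone all genes split into 813 higher and 574 lower. Signs of uncalled genes near 0 turned. With RLE factors and DESeq2, Dut was at 0.0041 and Bst2 at 0.0001. With library totals, Chaf1a was at -0.064, Pola1 at -0.0098, Pold1 at -0.026 and Rfc1 at -0.010, and on log2 RPKM these were at -0.086, -0.017, -0.016 and -0.012. Chaf1a was at -0.016 with limma-voom and -0.018 with the block. With a library left out, log2 fold changes spanned -0.056 to 0.0051 for Afmid, -0.12 to 0.14 for Bst2, -0.11 to 0.83 for Car2, -0.18 to 0.55 for Ccne1, -0.056 to 0.55 for Cdc6, -0.30 to 0.26 for Chaf1a, -0.21 to 0.35 for Chaf1b, -0.082 to 0.10 for Dut, -1.52 to 0.33 for Klrb1c, -0.19 to 0.99 for Mcm10, -0.45 to 0.038 for Mcm2, -0.30 to 0.061 for Mcm3, -0.39 to 0.13 for Mcm4, -0.30 to 0.036 for Mcm7, -0.22 to 0.049 for Orc6, -0.15 to 0.24 for Pola1, -0.15 to 0.28 for Pold1, -0.43 to 0.066 for Pole, -0.041 to 0.15 for Rfc1, -0.079 to 0.45 for Rfc3, -0.036 to 0.44 for Rpa3, -0.026 to 0.33 for Rrm1 and -0.39 to 0.24 for Uhrf1. Calls of genes outside the set that other settings ended were those of Cdkn1b (library totals, limma-voom and log2 RPKM), Recql4 and Zbtb46 (log2 RPKM), Siglech (library totals, log2 RPKM and each library left out) and Runx2 (log2 RPKM and BFP-positive replicate 2 left out). DESeq2 called 7 genes of G1 and S-phase control higher in place of 4; log2 RPKM called 1 conventional dendritic cell marker and no pDC marker higher (library totals, 1 pDC marker), and 1 gene of the wider replication list lower, as did the filter at 1 CPM. The causes of these changes were not tested. The largest SEs of the members were those of Mcm10, E2f2, Orc1, Ccne2 and Pola1, with mean levels of 7.15 to 10.8 CPM.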
